A study of Mus musculus with 24 samples.

Results

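The replication-dependent histone genes of cultured mouse whisker follicles are described here in 7 treatments and a control. A gene was a member if the name of its array probe starts with H2ac, H2bc, H3c or H4c and a digit, or with the older forms Hist1h to Hist4h, and where a gene had several probes the one with the highest mean log2 signal stood for it. This gave 46 genes with 58 probes: 16 of H2A, 12 of H2B, 9 of H3 and 9 of H4. By the probe positions in the files, 36 of them lie on chromosome 13 and 10 on chromosome 3. Of the 46 genes, 44 were tested among 22058 genes or transcripts in all. The probes of H2ac7 and H2bc22 were too dim to test, with 0 and 4 of 24 arrays well above background. The 24 arrays are one-colour Agilent arrays of vibrissa follicles from B6C3F1 mice at postnatal day 9, cultured for 24 h in serum-containing medium, with 10 follicles per sample and 3 arrays per group. The treatments were 0.3% panthenyl ethyl ether (PEE), 0.015% pyridoxine hydrochloride (PH, a form of vitamin B6), 0.024% tocopherol acetate (TA, an ester of vitamin E), the pairs PEE-PH, PEE-TA and PH-TA, the triple PEE-PH-TA, and control follicles without an added compound. All groups share the strain, the medium and the culture time.

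Replication-dependent histone genes encode the core histones that package newly made DNA, and their mRNAs rise and fall with S phase. Their mRNAs normally end in a stem-loop that the stem-loop binding protein holds, and not in a poly(A) tail. Some of the genes can also give longer, polyadenylated transcripts that run past the stem-loop, mainly in cells that have stopped dividing. The matrix at the base of a hair follicle is among the fastest dividing tissues of the body. The labelling kit used here starts cDNA with a T7 promoter primer. Such primers anneal to poly(A), so tailless mRNAs may be represented less fully than tailed ones, and how far the primer reached them was not tested.

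Where a probe lies on its transcript matters for these genes, so the probe sequences come first. The 60-base probes fell into 3 classes, a division made after the values had been seen: 24 tested genes had a probe in the 5′ or coding part, 8 had a probe that holds the stem-loop or is cut within it, and 12 had a distal probe. A distal probe starts more than 470 bases into its transcript without the stem-loop, or has over 30 of its bases after it. The windows of 30 bases below show the stem-loop in capitals as the probes hold it, with positions of the whole probe on mm9 as the files give them. For near-identical genes the position may be 1 of several matches, and that of H2ac13 spans 74 bases and overlaps the positions of the H2ac22 and H2ac23 probes. They are shown because the stem-loop probes of the first 5 genes all fell with PEE-PH, whereas H2ac18, which carries 38 bases past the same stem-loop, did not.
H2ac13, chr13:21902706-21902779 (+): cattacgaatcaccaaaGGCTCTTTTCAGA
H2bc7, chr13:23665629-23665688 (-): taacccaaaGGCTCTTTTCAGAGCCaccta
H3c1, chr13:23853756-23853815 (-): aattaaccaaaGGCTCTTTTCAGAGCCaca
H4c18, chr13:21923661-21923720 (-): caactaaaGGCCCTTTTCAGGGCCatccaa
H3c8, chr13:23627719-23627778 (+): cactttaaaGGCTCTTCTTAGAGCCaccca
H2ac18, chr3:96049949-96050005 (+): taaaaaGGCTCTTTTCAGAGCCacccactg

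The H2A probes are a second case. Of 10 tested H2A genes with a probe in the coding part, 8 had probes that share at least 30 bases in a row with the probe of another H2A gene. The 3 probes below end at the stop codon and show in capitals a run of 34 bases that they have in common. RNA from one of these genes can therefore bind the probes of several, so their values are not independent measurements and cannot be assigned to single genes.
H2ac10, chr13:23626113-23626172 (+): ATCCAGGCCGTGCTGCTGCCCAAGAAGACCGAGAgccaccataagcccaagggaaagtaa
H2ac12, chr13:22127035-22127094 (-): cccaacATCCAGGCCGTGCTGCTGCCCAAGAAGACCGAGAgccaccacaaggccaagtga
H2ac15, chr13:21845304-21845363 (-): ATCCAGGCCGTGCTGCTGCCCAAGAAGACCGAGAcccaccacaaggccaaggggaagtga

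Levels below are log2 signal relative to the 75th percentile of the same array, and changes are differences of these, with standard errors from limma. A gene is said to have risen or fallen where limma's adjusted p was under 0.05. Levels of different probes are not compared. The percentile itself ran from 142 to 248 in signal units. It was highest on the PH-TA arrays (203 to 248) and the PEE-PH arrays (199 to 217) and lowest on the PEE arrays (142 to 147), against 155 to 190 in control, and its part in the results below was tested only as a covariate. All 20 follicle keratinocyte markers were well above background on every array. Every slide carried 1 array of each group. In these whole follicles, fewer dividing cells and less histone RNA per cell cannot be told apart.

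Relative to the array percentile, the median change of the histone genes was lowest in follicles treated with PEE-PH. Before scaling, not every gene was lowest there: the geometric mean signal of H2ac4 was 7005 with PEE-PH and 6847 with PEE. That of H2bc7 was 193 and 213. Of 44 histone genes, 30 fell and 2 rose with PEE-PH against control, whereas 20.9% of all genes tested fell and 14.9% rose. The median change of the histone genes was -0.74 and that of all genes -0.06. On the 3 slides taken singly, the median difference was -0.71, -0.82 and -0.74, with 36, 38 and 36 of the 44 genes lower in PEE-PH. Without the 8 H2A genes whose probes share long runs, 22 of 36 fell and 2 rose.

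Each of the 4 core histones had members among the genes that fell with PEE-PH: 13 of 15 tested genes of H2A, 4 of 11 of H2B, 7 of 9 of H3 and 6 of 9 of H4. Their medians were -0.79 for H2A, -0.15 for H2B, -1.07 for H3 and -0.71 for H4. Of the 11 tested H2B genes, 2 had a stem-loop probe, and both fell. By the place of the probe, 19 of 24 genes with a 5′ or coding probe fell and 0 rose, with a median of -0.74. All 8 genes with a stem-loop probe fell, by 0.92 to 1.43, with a median of -1.18. Of 12 genes with a distal probe, 3 fell (H2ac6, H2bc23 and H2bc8) and 2 rose (H2bc4 and H3c14), with a median of 0.08. With the array percentile as a covariate, 28 of 44 fell and 1 rose.

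**Figure D1:**
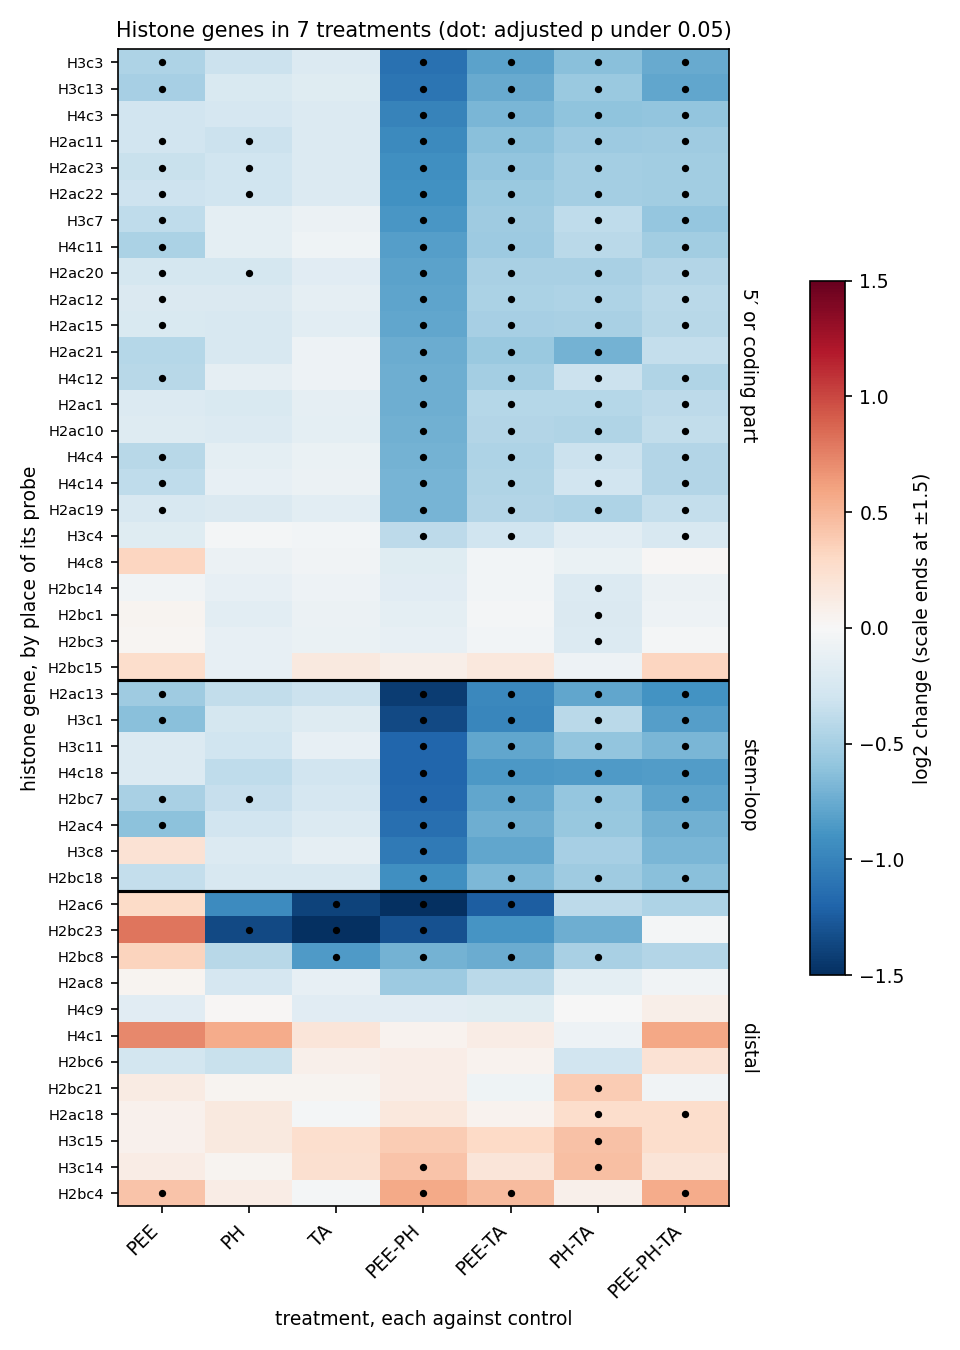
Log2 change of the 44 tested histone genes (rows, grouped by the place of the probe and ordered by the change with PEE-PH) in the 7 treatments (columns), each against control; colour gives the change and a dot marks an adjusted p under 0.05. All 8 stem-loop genes are called with PEE-PH and most coding genes are blue there, with H2bc15 above 0, while the distal block holds the 2 genes that rose with PEE-PH.

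The stem-loop probes showed the fall in each class of core histone. H2ac13, an H2A gene of the large cluster, had levels of -0.15, 0.09 and 0.39 on the PEE-PH arrays and of 1.32, 1.59 and 1.70 on the control arrays. The PEE-PH arrays lay below the control arrays without overlap, a change of -1.43 ± 0.15 (adjusted p = 1.97e-06 in limma), or 0.372 times the control signal at the scaling used here. The PEE arrays had 1.08, 0.78 and 1.14, the PH arrays 1.14, 1.08 and 1.27, and the TA arrays 1.10, 1.25 and 1.31. The PEE-TA arrays had 0.80, 0.37 and 0.54, the PH-TA arrays 0.59, 0.67 and 1.01, and the PEE-PH-TA arrays 0.63, 0.71 and 0.59. So H2ac13 was lower than on every control array on all 21 treated arrays, and the PEE-PH group had the lowest mean of the 8 groups.

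H2bc7, which encodes an H2B, had levels of -0.28, -0.11 and 0.01 with PEE-PH, against 0.98, 1.03 and 1.13 in control. Its change was -1.17 ± 0.10 (adjusted p = 2.63e-07 in limma). With PEE-TA its levels were 0.42, 0.17 and 0.22, and with PEE-PH-TA they were 0.37, 0.36 and 0.03. Both combinations lay between PEE-PH and control, with changes of -0.78 ± 0.10 and -0.79 ± 0.10. H2bc7 was also among the 6 genes that fell with PH alone, by 0.35 ± 0.10 (adjusted p = 0.0414 in limma), a call lost under 3 of 9 alternatives and in each of the 9 settings that leave out arrays.

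H3c1, an H3 gene, had levels of -3.56, -3.32 and -3.65 with PEE-PH, against -2.21, -2.19 and -2.07 in control, a change of -1.35 ± 0.11 (adjusted p = 2.42e-07 in limma). The groups did not overlap. H4c18, an H4 gene, had -1.76, -1.94 and -1.69 with PEE-PH, against -0.77, -0.51 and -0.54 in control. Its change was -1.19 ± 0.16 (adjusted p = 2.19e-05 in limma). H3c8, another H3 gene, fell by 1.07, and its change passed the threshold in no other treatment.

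**Figure D2:**
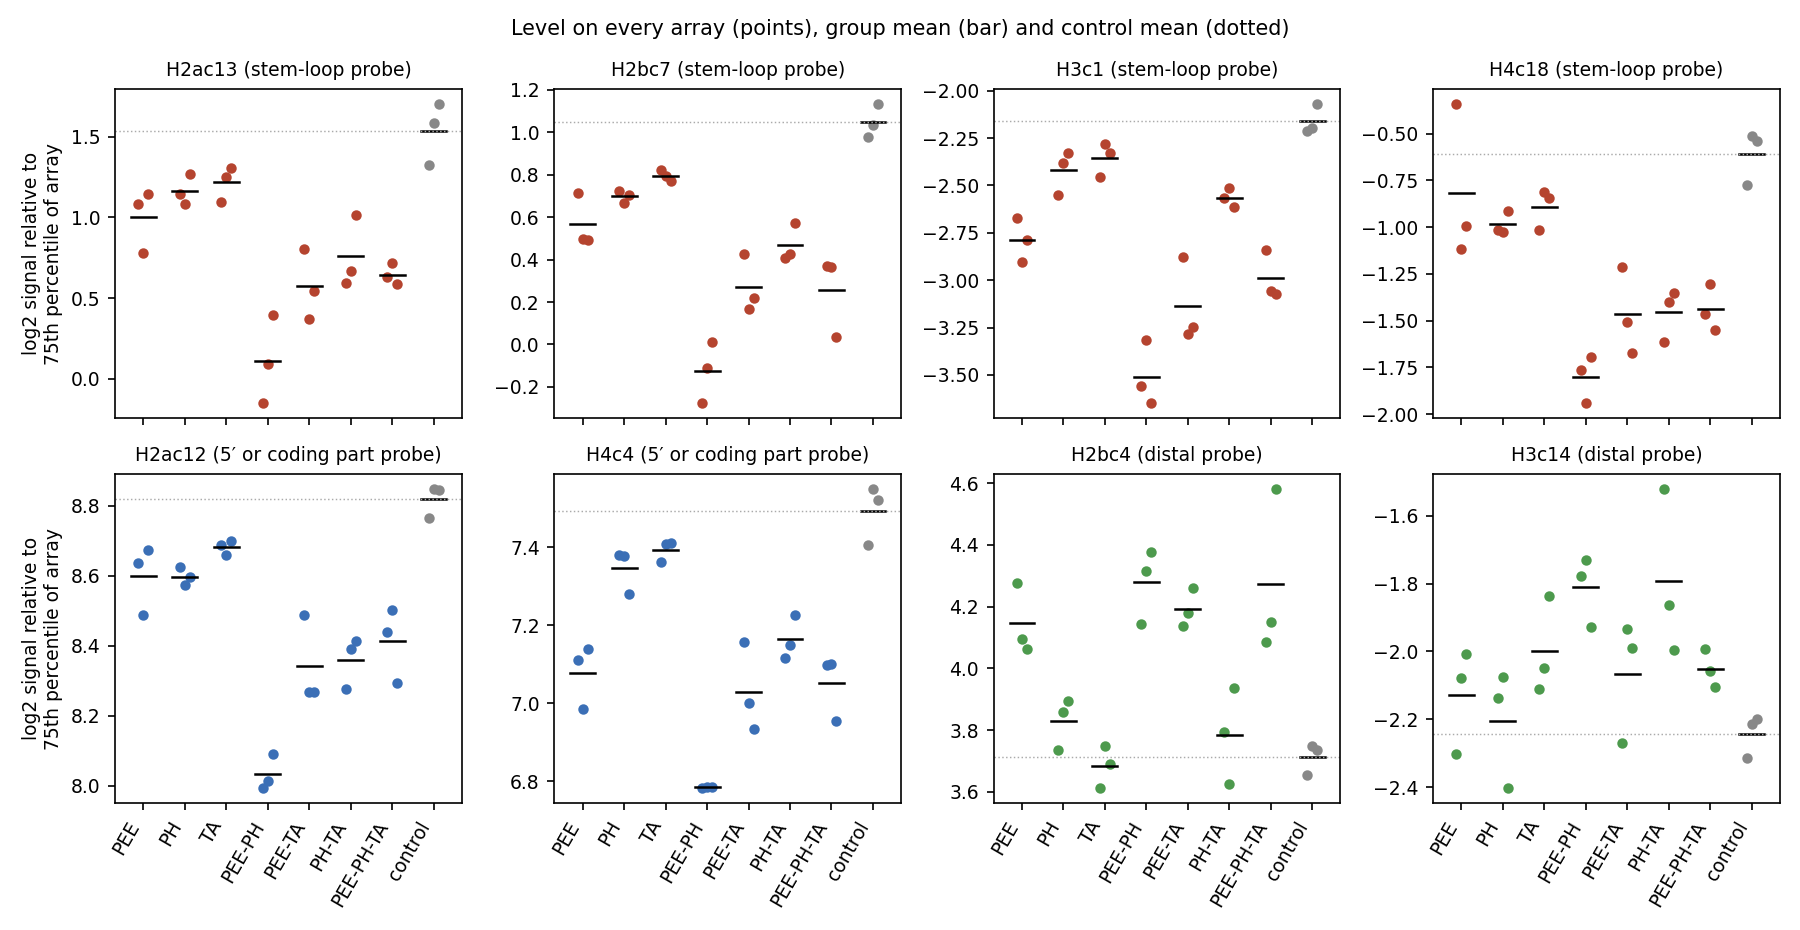
Level of 8 histone genes on all 24 arrays (points), as log2 signal relative to the 75th percentile of the array, with group means (bars) and the control mean (dotted line); treatments stand left of control and each panel has its own axis. The stem-loop and coding genes have their lowest mean with PEE-PH, and H2bc4 is higher in the 4 groups with PEE.

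Most probes in the coding part fell as well, with the smaller median given above. H2ac12, one of the H2A genes with a shared probe, had 7.99, 8.01 and 8.09 with PEE-PH, against 8.76, 8.85 and 8.85 in control, a change of -0.79 ± 0.07. H4c4 had 6.78, 6.79 and 6.78 with PEE-PH, against 7.41, 7.55 and 7.52 in control, a change of -0.71 ± 0.06. H3c13 changed by -1.09 ± 0.10 and H3c4 by -0.39. The brightest histone probe was that of H2ac12, reaching 82826 signal units, and 0 spots were flagged as saturated.

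Not every coding probe moved. The 4 H2B genes with a coding probe had changes between -0.17 and 0.08 with PEE-PH and 0 of them passed. Among the 7 treatments H2bc1, H2bc14 and H2bc3 passed by these probes with PH-TA alone, where they fell by 0.21, 0.20 and 0.21. A second, dimmer coding probe of H2bc3, fitted on its own, passed with PEE-PH, PH-TA and PEE-PH-TA. Its changes there were -0.53, -0.62 and -0.41. H2bc15 did not pass in any of the 7 treatments. In the average effect of PEE it rose by 0.22 ± 0.06 (adjusted p = 0.0134 in limma), a call lost with the array percentile as a covariate and in 3 of 27 settings that leave out arrays.

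Among distal probes, H2bc4 stood apart from the falling genes. It encodes an H2B, and its probe starts 632 bases into the transcript. It had 4.14, 4.32 and 4.38 with PEE-PH, against 3.65, 3.75 and 3.74 in control, a rise of 0.57 ± 0.11 (adjusted p = 0.000647 in limma), or 1.48-fold. It rose by 0.43 ± 0.11 with PEE, by 0.48 ± 0.11 with PEE-TA and by 0.56 ± 0.11 with PEE-PH-TA. The rise with PEE did not pass with the array percentile as a covariate and in 4 of 9 settings that leave out arrays, and the one with PEE-PH-TA did not pass with only the arrays compared. With PH, TA and PH-TA its levels ran from 3.61 to 3.94, overlapping the control arrays, and it did not pass. All 12 arrays with PEE lay above all 12 without it.

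H3c14, an H3 gene of chromosome 3 with a probe 1443 bases into the transcript, had -1.78, -1.73 and -1.93 with PEE-PH, against -2.31, -2.21 and -2.20 in control, a rise of 0.43 ± 0.12 (adjusted p = 0.0103 in limma). It also rose with PH-TA, by 0.45 ± 0.12. H3c15, H2bc21 and H2ac18 rose with PH-TA too, by 0.44, 0.38 and 0.26. H2ac18 rose with PEE-PH-TA as well, by 0.26 ± 0.07, with levels of 3.93, 4.10 and 4.02 against 3.65, 3.82 and 3.79 in control. With normexp background correction, and with the array percentile as a covariate, the rises of H3c14 and H2bc21 did not pass. With only the arrays compared, their rises with PH-TA did not pass. The rise of H2ac18 with PH-TA did not pass with the covariate or with only the arrays compared, and its rise with PEE-PH-TA did not pass with the authors' value table or with only the arrays compared.

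**Figure D3:**
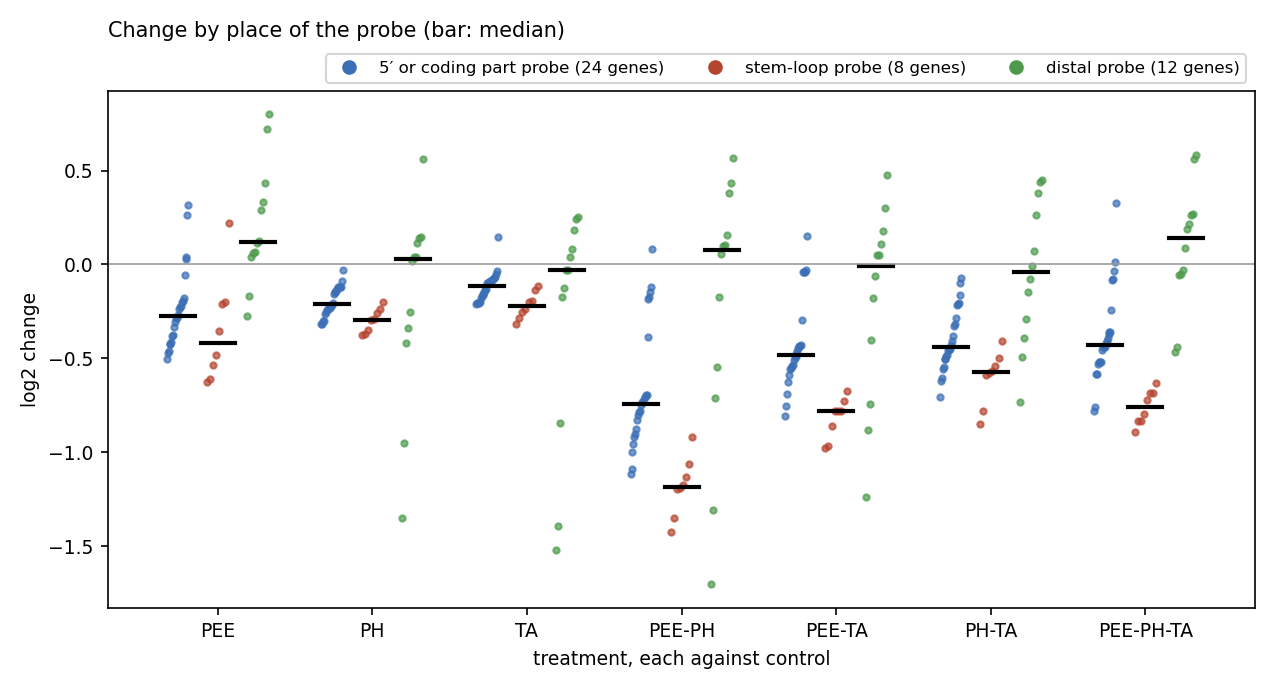
Log2 change of the 44 histone genes in each treatment against control, by the place of the probe (points are genes, bars are medians; points of a class are spread by rank). With PEE-PH the median is -1.18 for stem-loop probes, -0.74 for 5′ or coding probes and 0.08 for distal probes.

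H2bc18 and H4c9 had 2 tested probes on either side of this division, and each probe was fitted on its own among 33340 probes, an alternative chosen after the values had been seen. For H2bc18 the stem-loop probe changed by -0.92 ± 0.12 with PEE-PH (adjusted p = 1.74e-05 in limma), and the probe 1348 bases into the transcript by 0.32 ± 0.23 (adjusted p = 0.303 in limma). For H4c9 the probe at base 33 changed by -0.85 ± 0.15 (adjusted p = 3.1e-04 in limma), and the probe at base 581, which stood for the gene, by -0.17 ± 0.09 (adjusted p = 0.129 in limma). The coding probe of H4c9 spans the start codon, in capitals. It fell with PEE-TA, PH-TA and PEE-PH-TA as well, by 0.52, 0.53 and 0.45, while the distal probe passed in none of the 7 treatments. The difference between probes of a gene was not tested.
H4c9, chr13:22133139-22133198 (-): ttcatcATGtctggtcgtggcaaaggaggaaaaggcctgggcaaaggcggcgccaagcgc

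**Figure D4:**
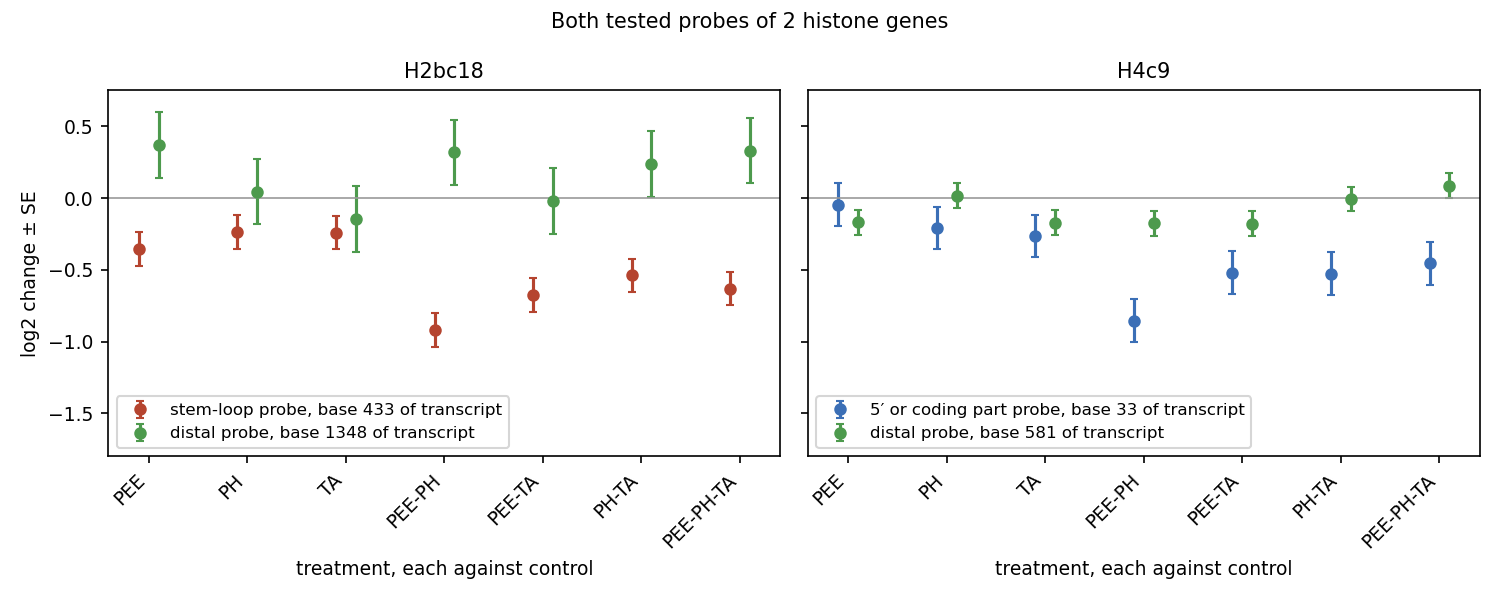
Log2 change ± SE (limma, 3 arrays per group) of both tested probes of H2bc18 and H4c9 in each treatment against control. With PEE-PH the stem-loop probe of H2bc18 is at -0.92 and its distal probe at 0.32, and the coding probe of H4c9 is at -0.85 and its distal probe at -0.17.

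In 6 other genes both tested probes lay in the same class. With PEE-PH both probes of H4c4 fell, by 0.71 and 0.78, and both of H4c12, by 0.74 and 0.79. For H2bc3 the probe at base 224, which stood for the gene, changed by -0.12, and the dimmer one at base 101 fell by 0.53. The 2 distal probes of H2bc6 changed by 0.10 and 0.28 and those of H2bc21 by 0.10 and 0.08, and none of these passed. Those of H3c15 changed by 0.38 and 0.59, and the second, dimmer one passed.

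Most histone genes also fell in the pairs with TA. With PEE-TA, 28 of 44 histone genes fell and 1 rose, where 15.3% of all genes fell and 10.2% rose, and the median of the histone genes was -0.49. With PH-TA, 29 fell and 4 rose, where 17.5% of all genes fell and 12.1% rose, with a median of -0.42. Of the 8 stem-loop genes, 7 fell in each, and H3c8 did not pass. With the 75th percentile of each array as a covariate, 27 histone genes fell with PEE-TA and 0 with PH-TA. The named genes that fell with PH-TA stayed below 0 over all settings tried, all of which use scaled arrays. H4c18 was at -0.59 or lower, H3c13 at -0.48 or lower and H2ac4 at -0.44 or lower. H2ac12, H4c4 and H2bc1 came as near 0 as -0.18, -0.14 and -0.12. The PH-TA arrays had the highest percentiles, and percentile and treatment cannot be told apart there. Before scaling, the geometric mean signal of H3c13 was 1039 with PH-TA and 1158.5 in control. That of H2ac4 was 11090 and 12464, and that of H2ac12 74328 and 77370. For H2bc1 it was 1009 with PH-TA and 887 in control. Without the arrays of replicate 2, 16 histone genes passed with PH-TA.

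In the triple combination PEE-PH-TA, 25 of 44 histone genes fell and 2 rose, whereas 8.72% of all genes fell and 7.78% rose. The median was -0.43, and 7 of 8 stem-loop genes fell by 0.63 to 0.89. H3c1 had -2.84, -3.06 and -3.07 with PEE-PH-TA, against -2.21, -2.19 and -2.07 in control, a change of -0.83 ± 0.11 (adjusted p = 5.33e-05 in limma). H4c18 had -1.47, -1.30 and -1.55 with PEE-PH-TA, also below all 3 control arrays. Its change was -0.83 ± 0.16.

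Single compounds moved fewer histone genes. With PEE, 18 of 44 fell and 1 rose, where 5.69% of all genes fell and 5.20% rose, and the median was -0.22. The count was 8 with the array percentile as a covariate, 8 with only the arrays compared, and 23 falls and 8 rises with normexp. The largest falls among genes with separated arrays were H3c1 at -0.63 ± 0.11, H2ac4 at -0.61 and H2ac13 at -0.54 ± 0.15, of which H2ac13 did not pass with only the arrays compared and in 6 of 9 settings that leave out arrays. H2ac4 had 5.67, 5.46 and 5.59 with PEE, against 6.10, 6.29 and 6.17 in control. With PH, 6 fell and 0 rose, where 3.65% of all genes fell and 1.60% rose, with a median of -0.23. Without the 8 H2A genes whose probes share long runs, 2 of 36 fell with PH. With TA, 3 fell and 0 rose, where 1.43% of all genes fell and 0.399% rose, with a median of -0.13. On each of the 3 slides 37 of the 44 genes were lower with PH than in control, and 37 to 39 were lower with TA. For PEE this count was 25, 36 and 31, with a median of -0.08 on the first slide, so the change with PEE was uneven over slides. Without all arrays of replicate 2, 2 histone genes passed with PEE, without those of replicate 1, 11, and without those of replicate 3, 10. Leaving out PEE replicate 2 gave 9, and leaving out control replicate 1 or 2 gave 11. The counts with PH and TA rest on single arrays: leaving out any 1 control array gave 0 for PH, as did leaving out PH replicate 2, and leaving out PH replicate 3 gave 1. Leaving out control replicate 2 or 3 or TA replicate 3 gave 0 for TA, and leaving out TA replicate 1 gave 1.

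Averaging over the 4 backgrounds in which a compound was added gives each effect the weight of all 24 arrays. For PEE, 26 of 44 histone genes fell and 3 rose, where 14.2% of all genes fell and 12.8% rose, with a median of -0.26. H3c1 fell most among genes with the same direction in all 4 backgrounds, by 0.73 ± 0.05 (adjusted p = 1.18e-08 in limma). H2ac13 fell by 0.59 ± 0.07, H3c13 by 0.54 ± 0.05 and H2ac4 by 0.53. The genes that rose were H2bc4 by 0.47 ± 0.05 (adjusted p = 3.42e-06 in limma), H2bc15 by 0.22 and the dim H2bc23 by 0.55, and the last 2 did not pass with the array percentile as a covariate.

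For PH, 29 of 44 fell and 1 rose, where 17.4% of all genes fell and 13.9% rose, with a median of -0.25. The falls were smaller: among genes with the same direction in all 4 backgrounds, H2bc7 fell by 0.35 ± 0.05 (adjusted p = 8.05e-05 in limma), H3c13 by 0.31 ± 0.05, H3c7 by 0.25 and H2bc1 by 0.13. H2ac18 was the gene that rose, by 0.19 ± 0.03 (adjusted p = 0.000704 in limma). For TA, 2 fell and 0 rose, H2bc8 and H4c18 (the second lost under 4 of 8 alternatives), where 5.20% of all genes fell and 2.78% rose, and the count ran from 0 to 4 when arrays were left out. With the array percentile as a covariate, 25 genes fell for PEE and 2 for PH.

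PH was next added to PEE, a comparison chosen after the values had been seen, which shares the PEE-PH arrays with the one above. In PEE-PH, 30 of 44 histone genes were below PEE and 0 above it by the test, where 20.6% of all genes fell and 12.9% rose, and the median was -0.53. All 8 stem-loop genes fell. With the array percentile as a covariate, 0 fell by the test. The named genes that fell here stayed below 0 over all settings tried, all of which use scaled arrays. H4c18 was at -0.69 or lower, H2bc7 at -0.47 or lower, H3c1 at -0.45 or lower and H2ac13 at -0.40 or lower. H4c4, H2bc1 and H3c4 came as near 0 as -0.09, -0.09 and -0.08. The PEE-PH arrays had higher percentiles than the PEE arrays on every slide, and percentile and treatment cannot be told apart here. Before scaling, the geometric mean signal of H2ac13 was 228 with PEE-PH and 287 with PEE. That of H2bc7 was 193 and 213, and that of H3c1 18.5 and 20.8. For H2ac4 it was 7005 with PEE-PH and 6847 with PEE, and for H3c4 7970 and 6266.

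Adding TA to PEE-PH went the other way. In PEE-PH-TA, 11 histone genes were higher than in PEE-PH and 0 lower, where 0.685% of all genes rose and 0.0363% fell, with a median of 0.34. The medians on the 3 slides were 0.39, 0.39 and 0.19. Of the 11 genes, 10 encode H2A, and 7 of them are genes with shared probes, so 4 of 36 genes rose without these. H3c1 was higher by 0.52 ± 0.11 (adjusted p = 0.0413 in limma), with the levels given above. This count depended on the settings: it was 0 under quantile normalization, 0 with the authors' value table, 0 without the filter on dim probes and 0 when only the 6 arrays compared were fitted. It was also 0 without replicate 1 or 2 of either group and without all arrays of any replicate number.

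The interaction terms ask whether the effect of one compound depended on another. For PEE and PH, 0 of 44 histone genes passed in limma, as did 0% of all genes. Limma's unadjusted p was under 0.05 for 1 histone gene, and for 4.21% of all genes. For PEE and TA, 0 histone genes passed, again with 0% of all genes. Here the unadjusted p was under 0.05 for 26 of 44, and for 14.5% of all genes, and 38 had a positive sign. Both counts of histone genes that passed were 0 under all other settings. For PH and TA, 13 histone genes passed, where 13.7% of all genes passed in either direction. All 13 were positive: the effect of PH on these genes was more positive with TA present than without it. Without the 8 H2A genes whose probes share long runs, 6 of 36 histone genes passed. Over the 44 genes the median effect of PH was -0.11 with TA and -0.37 without it. For H3c1 the effect of PH was -0.03 with TA and -0.49 without it. The count was 3 without all arrays of replicate 2, 4 without those of replicate 3, 8 without those of replicate 1 and 20 without PEE-TA replicate 1.

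H2ac6, H2bc23 and H2bc8 had the lowest p of this interaction. H2bc23 and H2ac6 were the dimmest genes tested, well above background on 17 and 19 arrays, and H2bc8 was so on all 24. H2ac6 had 3 to 18.5 signal units, and 1 of 3 PEE-PH arrays and 1 of 3 TA arrays were well above background. Its levels were -6.19, -5.46 and -4.87 with PEE-PH and -5.50, -4.76 and -5.33 with TA, against -4.07, -3.50 and -3.85 in control. Both treated groups lay below control. The fitted change was -1.70 with PEE-PH, and -2.04 to -0.40 over all settings tried. It was -1.39 with TA, and -1.61 to -0.24 over these settings. With PEE alone it had -3.36, -3.54 and -3.64, which overlaps control.

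H2bc23 had -5.90, -5.64 and -5.39 with TA, against -4.12, -4.09 and -4.14 in control. It was not well above background on any TA array, so its signal was at least 2.42-fold lower with TA at the scaling used here (adjusted p = 0.0299 in limma). That call was lost under 4 of 9 alternatives and in each of the 9 settings that leave out arrays, and the log2 change was as small as -0.24. The fitted interaction of PH and TA was 2.36 for H2ac6, 2.55 for H2bc23 and 1.06 for H2bc8. Its size depended on the settings, from 0.44 to 2.52 for H2ac6, 0.44 to 2.83 for H2bc23 and 0.31 to 1.15 for H2bc8, and the 3 calls were kept in all of them. H2bc8 had -4.33, -4.33 and -4.42 with TA, against -3.78, -3.22 and -3.53 in control, without overlap. The erythroid marker genes moved too: 7 of 10 measured rose and 0 fell in this interaction, and their summed log2 level was 11.75 to 11.89 with PEE and 10.93 to 11.04 with PH-TA, against 11.36 to 11.55 in control. In the same interaction 9 of 20 follicle keratinocyte markers, 5 of 15 skeletal muscle markers and 3 of 14 dermal papilla markers fell and 0 rose, and 4 of 15 macrophage and leukocyte markers rose and 0 fell. In it 2 of 12 endothelial, 1 of 9 melanocyte, 1 of 9 adipocyte and 1 of 10 Schwann cell markers rose and 0 fell. Of all genes 13.7% passed in either direction. Of the 11 listed erythroid markers, Epb42 was not well above background on any array. The part of any of these cells in the values of the 3 genes was not tested.

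The gene lists that go with histone supply were compared by counts. Of 40 DNA replication genes, 38 fell and 0 rose with PEE-PH, with a median of -0.57, and 25 fell with PEE-PH-TA. Of 25 genes of mitosis, 24 fell with PEE-PH, with a median of -0.87, and 23 fell with PEE-PH-TA. In the average effect of PEE the thymidine kinase gene Tk1 fell by 0.47 and Uhrf1, which helps keep DNA methylation at replication, by 0.41. Among mitotic genes the cyclin gene Ccnb2 fell by 0.50 and Birc5, which encodes survivin, by 0.49. In the average effect of PH, Tk1 fell by 0.36 and Gins2, part of the replicative helicase, by 0.31, and the kinase gene Aurka and the cyclin gene Ccnb1 by 0.35 each. Of 15 cell cycle arrest genes, 8 rose and 2 fell with PEE-PH, where 14.9% of all genes rose and 20.9% fell. Gadd45a and Trp53inp1, which are p53 targets, rose by 0.50 and 0.38 in the average effect of PEE.

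**Figure D5:**
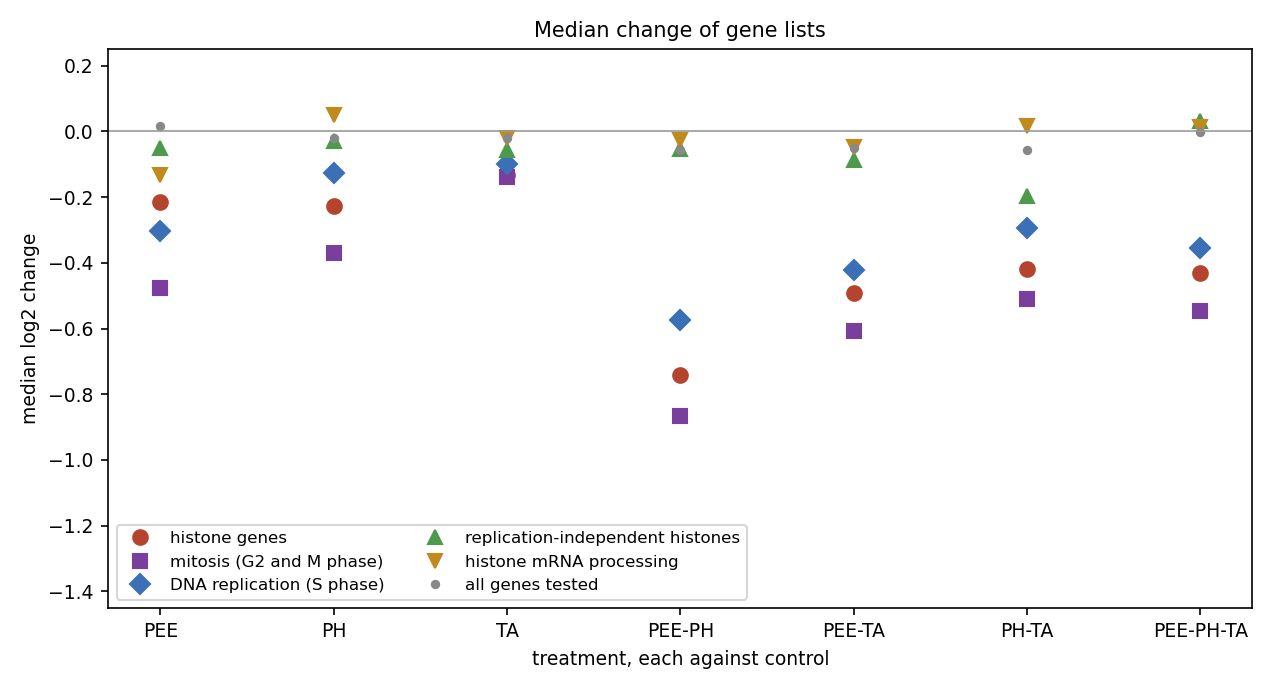
Median log2 change of the 44 histone genes and of 4 gene lists in each treatment against control, with the median of all genes tested. With PEE-PH the medians are -0.74 for histone genes, -0.87 for mitosis and -0.57 for DNA replication. The median of the 11 replication-independent histones (-0.06) lies at that of all genes, though 4 of them fell.

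Of 14 genes that make and process histone mRNAs, 2 rose and 2 fell with PEE-PH, where 14.9% of all genes rose and 20.9% fell, with a median of -0.03. Slbp, which encodes the stem-loop binding protein, changed by -0.31 ± 0.14 with PEE-PH (adjusted p = 0.102 in limma). Npat, the activator of histone gene transcription, changed by -0.11, and Casp8ap2, another protein of the histone locus body, by 0.04. None of these 3 passed in any of the 7 treatments. In the average effect of PEE, Lsm10, a subunit of the U7 snRNP, rose by 0.18 and Eri1, an exonuclease that trims the stem-loop end, fell by 0.19. In that of PH, Lsm11 fell by 0.21, while Sympk rose by 0.15 and Eri1 by 0.12.

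Of 11 replication-independent histone genes, 4 fell and 0 rose with PEE-PH, where 20.9% of all genes fell and 14.9% rose. Their median was -0.06, and their summed log2 level was 8.86 to 8.91 with PEE-PH, against 9.28 to 9.35 in control. In the average effect of PEE, H2ax, which marks DNA breaks once phosphorylated, fell by 0.31, the centromeric Cenpa fell by 0.27, and H3f3a, which encodes histone H3.3, rose by 0.12. In that of PH, Cenpa fell by 0.41 and H2aj by 0.23. Of 18 histone chaperone genes, 8 fell and 0 rose with PEE-PH, against the same 20.9% and 14.9% of all genes. Asf1b fell by 0.42 in the average effect of PEE and by 0.24 in that of PH, and Chaf1a, a subunit of the chromatin assembly factor, by 0.30 and 0.20. The linker histone genes are not members by the rule and were looked at after the values had been seen. Of 5, 4 fell with PEE-PH, H1f1 by 1.39, H1f4 by 1.01, H1f5 by 0.98 and H1f3 by 0.96, while H1f2 changed by -0.05 (adjusted p = 0.712 in limma).

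Markers of other cell types were counted too. Of all genes tested, 14.9% rose and 20.9% fell with PEE-PH. With PEE-PH, 10 of 15 skeletal muscle markers rose and 0 fell, with summed log2 levels of 6.74 to 7.11 with PEE-PH against 5.85 to 6.12 in control, and Myh2 was well above background on 18 arrays. Of 12 endothelial markers, 8 rose and 1 fell, of 9 melanocyte markers 5 rose and 0 fell, and of 14 dermal papilla markers 5 rose and 2 fell. Of 10 erythroid markers 5 fell and 0 rose, of 9 adipocyte markers 1 rose and 3 fell, and of 10 Schwann cell markers 1 rose and 1 fell. The Schwann cell counts, the adipocyte rise and the dermal papilla falls lay below the shares of all genes. Of 15 macrophage and leukocyte markers, 8 fell and 0 rose, with summed levels of 5.93 to 6.12 with PEE-PH against 6.16 to 6.46 in control. Of 20 follicle keratinocyte markers, 9 rose and 4 fell, with summed levels of 11.13 to 11.19 against 11.06 to 11.26 in control. The other treatments had such shifts too. With PEE-TA 10 skeletal muscle, 10 endothelial and 10 keratinocyte markers rose and 0, 1 and 3 fell. With PH-TA 7, 8 and 13 rose and 0, 1 and 2 fell. In these pairs 7 and 4 macrophage and leukocyte markers and 4 and 6 erythroid markers fell, and 0 rose. Of all genes 10.2% rose and 15.3% fell with PEE-TA, and 12.1% and 17.5% with PH-TA. With PEE 7 endothelial and 4 erythroid markers rose and 0 fell, and 4 keratinocyte markers fell and 0 rose. Of all genes 5.20% rose and 5.69% fell there. With PEE-PH-TA 7 macrophage and leukocyte markers fell and 0 rose, and 6 keratinocyte markers rose and 3 fell. Of all genes 7.78% rose and 8.72% fell there. The part of these shifts in the histone values was not tested.

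Promoters were taken from RefSeq (GRCm38.p6), where 41 of the 46 genes matched by symbol. In the 250 bases before the start, 34 of 41 held the motif CCAAT on either strand (82.9%), against 33.8% of all 32851 promoters, and 31 held it at least 2 times, against 10.1%. TATAAA was in 19 of 41 (46.3%), against 12.4% of all, and the octamer ATTTGCAT in 11 (26.8%), against 1.60%. By the class of the probe, CCAAT was in 6 of 7 promoters of the stem-loop genes, in 20 of 23 of the 5′ or coding ones and in 8 of 11 of the distal ones. The promoters of H2bc7, which fell in 6 of the 7 treatments, and H2bc15, which passed in none of them, are shown with CCAAT and its complement in capitals; they hold 4 and 3.
H2bc7, GRCm38.p6 chr13:23574208-23574457 (-): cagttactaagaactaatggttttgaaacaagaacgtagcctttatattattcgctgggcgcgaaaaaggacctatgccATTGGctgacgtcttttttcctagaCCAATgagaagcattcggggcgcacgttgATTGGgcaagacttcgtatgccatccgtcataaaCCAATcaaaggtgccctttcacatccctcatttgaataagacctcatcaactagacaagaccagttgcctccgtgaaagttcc
H2bc15, GRCm38.p6 chr13:21753826-21754075 (+): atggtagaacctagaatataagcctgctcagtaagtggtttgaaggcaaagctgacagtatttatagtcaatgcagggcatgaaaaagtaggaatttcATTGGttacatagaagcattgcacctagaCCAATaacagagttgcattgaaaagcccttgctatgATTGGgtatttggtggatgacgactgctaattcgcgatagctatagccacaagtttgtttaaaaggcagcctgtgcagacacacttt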

How the data were processed

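Each array was scanned in 1 green channel and read with Agilent Feature Extraction 12.0.3.1, per the file headers, and the labels name biotin as the label. The authors deposited the background-subtracted intensity of each spot (processed signal, linear scale) and a value table of log2 values. Here each value was log2 of the processed intensity minus log2 of the 75th percentile of its array. Control and flagged spots were left out. Probes well above background on all 3 arrays of at least 1 group were kept (33365 of 56605), and the probe with the highest mean log2 signal stood for each gene. Probe positions (mm9) and sequences come from the deposited files. limma 3.58.1 (R 4.3.3) was fitted to all 8 groups (24 arrays, 16 residual degrees of freedom), with Benjamini-Hochberg adjustment over 22058 genes and a threshold of 0.05. The alternatives were quantile normalization, normexp background correction (offset 50), the authors' log2 value table, no filter, a trended and robust prior, a replicate block, the array percentile as a covariate, only the arrays compared, and leaving out arrays. Array number limits the precision, with 3 independent experiments per group. The fits were tested on simulated data. The members and gene lists were chosen with earlier results of these data known. Named with their values were, per average effect, up to 4 rises and 4 falls with the same sign in all 4 backgrounds; per treatment, up to 3 rises and 3 falls with fully separated arrays; per interaction, up to 3 with the smallest adjusted p; the brightest member of each class; and, of each other list, up to 2 rises and 2 falls per average effect, with Slbp, Npat and Casp8ap2. Other members were named after their values were seen.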

Additional observations from a re-analysis of the deposited data

Results flagged for a closer look

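The effect of PH differed with and without TA in 13 of 44 histone genes by limma's interaction term, where 13.7% of all genes passed. Without the 8 H2A genes whose probes share long runs, it differed in 6 of 36. Among the named genes the interaction was 0.37 for H2ac11, 0.27 for H2ac12, 0.35 for H2bc7 and 0.46 for H3c1. The same term was 2.36 for H2ac6, 2.55 for H2bc23 and 1.06 for H2bc8. The sizes for H2ac6 and H2bc23 are not exact, because 1 and 0 of 3 TA arrays were well above background, and they ran from 0.44 to 2.52 and from 0.44 to 2.83 over all settings tried. For H2bc7 the effect of PH was -0.17 with TA and -0.52 without it, and the causes were not tested.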

How the results depend on the processing

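Counts of histone genes that passed are given here for settings that moved them by over 1.5 times. Of the changes of named genes that passed, none changed its direction, and changes that did not pass were not checked for this. With PEE the count was 19, and it was 31 with normexp (8 rose and 23 fell), 8 with the array percentile as a covariate and 8 with only the arrays compared. With PH it was 6, and it was 3 under quantile normalization, 3 with normexp, 1 with the value table, 1 without the filter, 10 with a trended and robust prior, 0 with the covariate and 1 with only the arrays compared. With TA it was 3, and 1 each with normexp, the value table and only the arrays compared. For PH-TA the count was 33 and 0 with the covariate, and for the average effect of PH 30 and 2. For the average effect of TA it was 2, and 1 with quantile normalization, 9 with normexp, 1 with the value table and 0 with the covariate. For the interaction of PH and TA it was 13, and 8 with quantile normalization, 5 with the value table and 5 with the covariate. For PEE-PH against PEE it was 30 and 0 with the covariate. For PEE-PH-TA against PEE-PH it was 11, and 0 with quantile normalization, the value table, no filter, the covariate and only the arrays compared, and 19 with the trended and robust prior. Leaving out arrays gave 2 to 20 for PEE, 0 to 4 for PH, 0 to 2 for TA, 16 to 32 for PH-TA, 0 to 4 for the average effect of TA, 3 to 20 for the interaction of PH and TA and 0 to 15 for PEE-PH-TA against PEE-PH. It gave 27 to 32 for PEE-PH, 20 to 32 for PEE-TA, 20 to 27 for PEE-PH-TA and 24 to 30 for the average effect of PEE. With the replicate number as a block the average effect of TA had 1 gene that passed, PEE-PH had 33, the interaction of PH and TA had 15 and PEE-PH-TA against PEE-PH had 15. The labels do not say that the numbers pair the cultures, and each number is also 1 slide. Over 84 pairs of arrays with the same number the correlation of deviations ran from -0.188 to 0.351, with 44 over 0.1 and a median of 0.103, against a median of -0.0493 for different numbers. As a hint from the data, not the design, 19 of 24 arrays correlated best with their own number. Scaling moved the median of all genes by over 0.1 in some fits: it was -0.12 for PH-TA with normexp, and -0.19 for PEE-PH and -0.20 for PH-TA without the filter. The causes of these shifts were not tested. H2bc23 and H2ac6 were well above background on 17 and 19 of 24 arrays.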
